A study of Mus musculus with 12 samples.

Results

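The WNT gene set described here comprises 61 of the 26264 genes counted in organoids grown from mouse uterine epithelium with and without estrogen receptor alpha (Esr1). Its members were chosen by name: every gene symbol of the Wnt, Fzd, Sfrp, Dkk and Rspo families that carries a family number, and 19 further genes of the pathway that take part in ligand acylation, coreception, receptor turnover, feedback and transcription. Endometrial epithelial organoids (EEO) are hollow balls of epithelium grown in a basement membrane gel from cells of the uterine lining. Organoids of 2 genotypes, wild type (WT) and Esr1 knockout (KO), were each kept without estrogen (untreated) or given it (treated), which makes 4 groups of 3 bulk RNA libraries, 12 in all. Per library, values are given in the order of replicates 1, 2 and 3. All 4 groups consisted of organoids at passage 3. The labels' protocols describe uteri of postnatal days 15, 30 and 60, and the age behind these libraries was not given in the sources used here, nor were the form, dose and duration of estrogen, the kind of Esr1 deletion or the composition of the medium. Nothing in the labels ties the replicates to separate mice or cultures, so the p-values measure the spread between these libraries, which may be technical.

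WNT proteins are secreted, lipid-bearing ligands. Porcn attaches the lipid, Frizzled receptors and the coreceptors Lrp5 and Lrp6 bind the ligand, and beta-catenin then acts with TCF and LEF factors in the nucleus, while Ror receptors serve branches that do not use beta-catenin. R-spondins and their Lgr receptors keep Frizzleds at the membrane by restraining the ubiquitin ligases Rnf43 and Znrf3, and SFRP, DKK, Wif1 and Notum proteins block ligands or coreceptors outside the cell. In the uterus the pathway is known for duct formation and patterning through Wnt4, Wnt5a and Wnt7a, and for the growth of glands.

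Between 75654191 and 108665407 reads were counted per library. Esr1 itself, the targeted gene, lay at 253 to 352 CPM (reads per 1000000 counted reads, with library totals scaled by TMM factors) in the WT libraries and at 15.9 to 20.3 CPM in the KO libraries, with log2 fold changes of -4.23 ± 0.13 (SE) without and -4.01 ± 0.13 with estrogen (edgeR adjusted p = 1.34e-09 and 2.25e-09). Epithelial markers such as Epcam were abundant in all 12 libraries, with summed levels of 4654 to 5671 CPM in WT (4938 to 5665 when treated) and 3756 to 4581 CPM in KO (3799 to 4888 when treated). Among 8 uterine and Müllerian identity genes, Hoxa9, Hoxa10 and Hoxa11 were at or near 0 in every library, and Hoxa13 had no read. Of the same 8 identity genes, Pax8, Pax2 and Emx2 were abundant, and the 8 summed to 381 to 400 CPM in WT (382 to 415 when treated) and 145.5 to 154 CPM in KO (151 to 168 when treated). Stromal markers were low throughout: the 10 genes summed to 2.52 to 5.33 CPM in WT (2.91 to 5.27 when treated) and 7.26 to 11.2 CPM in KO (6.66 to 9.17 when treated). Of the 6 stromal markers tested, 1 was higher in KO and 5 did not pass in both treatments, with a median log2 fold change of -1.61. The 5 immune markers summed to more, 221 to 375 CPM in WT (206 to 454 when treated) and 103 to 126 CPM in KO (111 to 189 when treated). Of the 6 basal markers, 5 were higher in KO and 1, Itga6, was lower. The basal sum ranged from 1398 to 1449 CPM in WT (1103 to 1469 when treated) and from 5678 to 10440.0 CPM in KO (4473 to 10590.0 when treated), and Itga6 alone made up 1101 to 1466 CPM of it in WT. Krt5, a basal keratin, was at 0.0127 to 0.203 CPM in WT, whereas in KO it was at 2754 to 6715 CPM. All 6 ciliated markers were higher in KO, with sums of 2.21 to 2.82, 2.63 to 2.71, 656 to 953 and 556 to 791 CPM in the same order of groups. Fewer cells of a type and less RNA per cell cannot be told apart in bulk libraries, and the part of these cell type differences in the WNT results was not tested.

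Most WNT genes that could be tested differed between the genotypes, and those that did were mostly higher without Esr1. Of the 61 members, 48 had enough reads for the test (edgeR's quasi-likelihood test over 16465 genes, Benjamini-Hochberg adjusted p under 0.05). Of these 48, 33 differed with the same sign in untreated and treated organoids, which is 68.8% beside 64.9% of all genes tested; that overall share is near the background. The directions were unequal: 25 members were higher in KO (52.1%, against 34.1% of all genes) and 8 were lower (16.7%, against 30.8%). Among the higher members, Wnt3a, Wnt6, Wnt10a, Wnt11, Fzd2, Dkk1 and Wif1 had 10 reads or fewer in each WT group. They passed the read filter only through their KO libraries and so could be called only as higher. The same filter set the shares of all genes. Changes of at least 2-fold in both treatments were seen in 28 members, or 58.3%, where 35.6% of all genes had them. The median log2 fold change, averaged over the treatments, was 1.46 over the 48 members and 0.03 over all genes. Without estrogen 34 members passed (25 higher, 9 lower), with a background of 71.7% (37.7% higher, 34% lower). With estrogen 35 passed (27 higher, 8 lower), with a background of 70.8% (36.7% higher, 34.1% lower). In 33 of the 48 members the 6 KO libraries lay entirely apart from the 6 WT libraries, beside 65% of all genes; 25 lay above (34% of all genes) and 8 below (31%). Of the 33 called members 32 were among them, all but Nkd2, and the remaining gene was Nkd1. Same-numbered KO libraries deviated together across treatments (r = 0.57, 0.50 and 0.41 over genes). Untreated and treated organoids are therefore not independent repeats of the genotype comparison. Left out of the test were 13 members: Wnt1, Wnt2, Rspo2 and Dkk4 had no read in any library, and Rspo1, Wnt8a, Sfrp4, Rspo3, Sfrp5, Lef1, Ror1, Wnt9b and Wnt8b had 2, 3, 4, 14, 18, 20, 30, 38 and 68 reads over all 12 libraries. A count of 0 in a group of 3 libraries allows up to 0.0114 CPM in WT (0.0112 when treated) and 0.0116 CPM in KO (0.00902 when treated), counting error only.

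**Figure D1:**
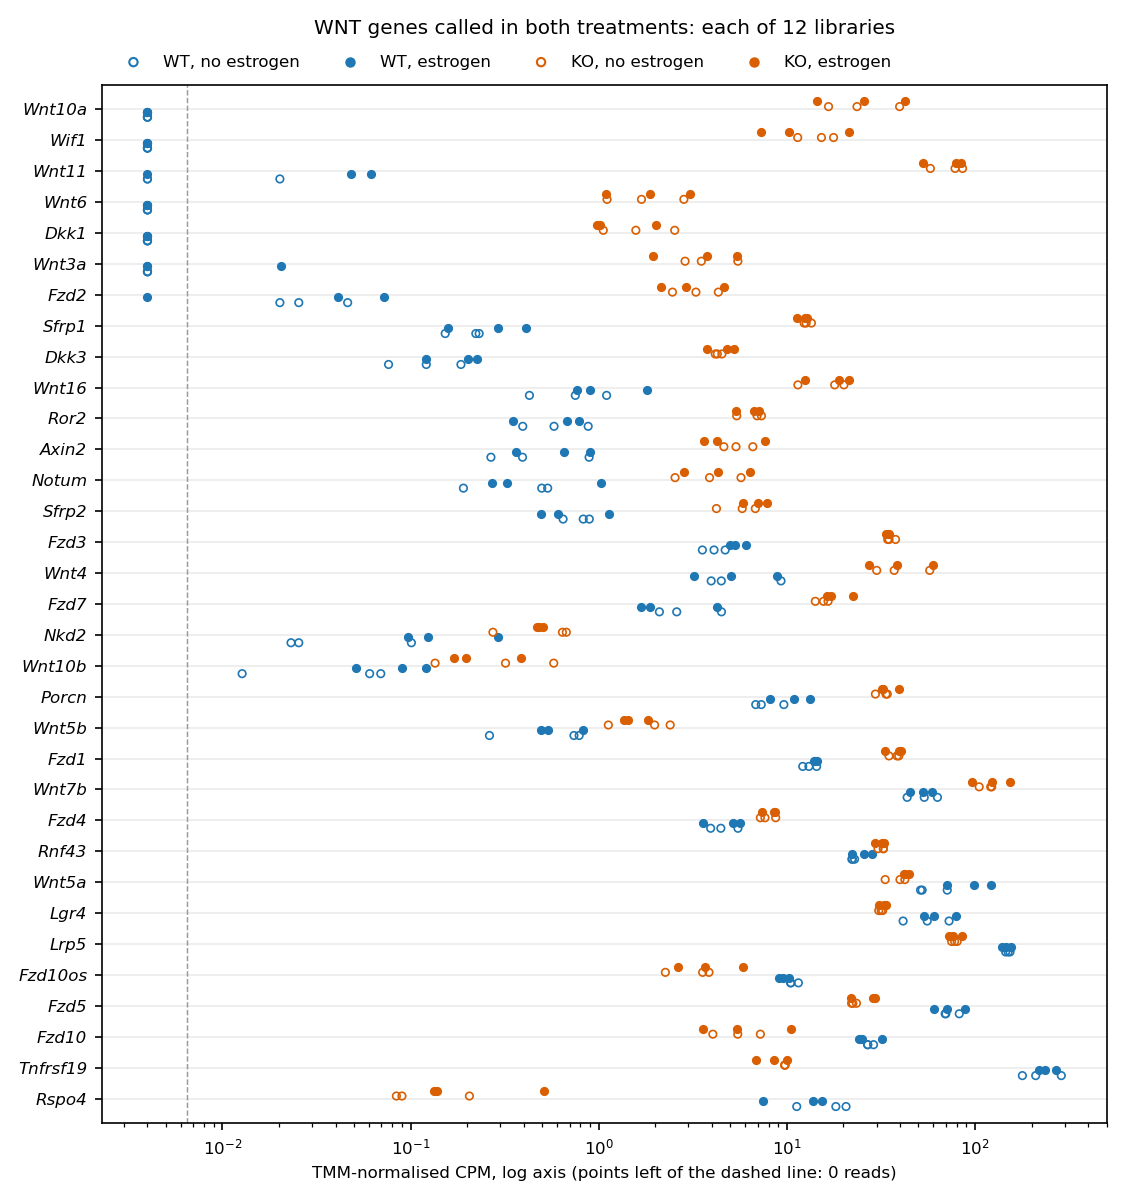
The 33 WNT genes that differed between genotypes in both treatments, 1 row a gene and 1 point a library, on a log axis of TMM-scaled CPM, ordered by their mean log2 fold change. Points left of the dashed line had no read; the 6 KO points lie to the right of the 6 WT points in 24 rows and to the left in 8, and overlap them for Nkd2.

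**Figure D2:**
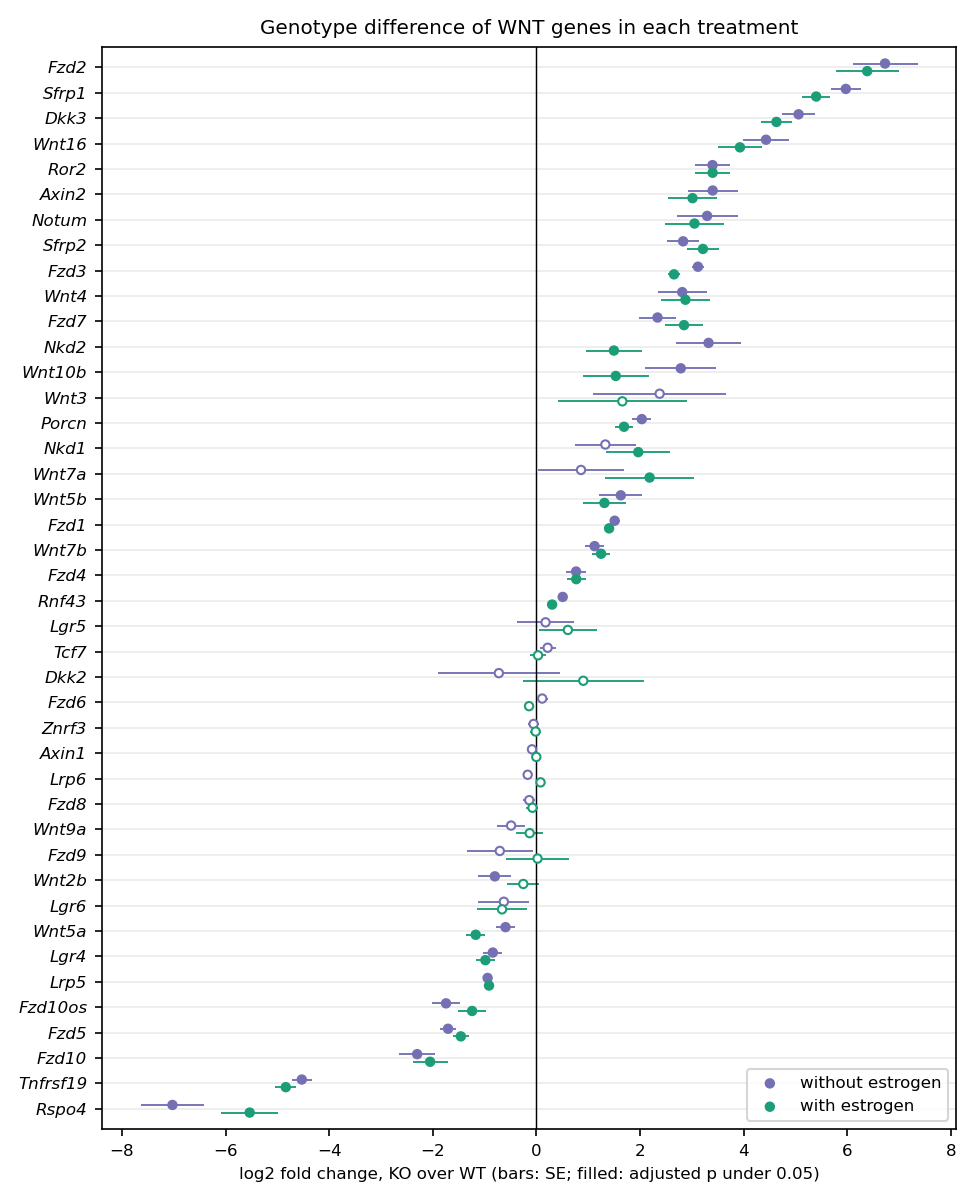
Log2 fold change of KO over WT (horizontal) for 42 tested WNT genes, 1 row a gene, without estrogen (purple) and with estrogen (green); bars are standard errors of the fit and filled points passed the adjusted p of 0.05. The 6 genes with 3 reads or fewer in a group (Wnt3a, Wnt6, Wnt10a, Wnt11, Dkk1, Wif1) are left out; the remaining genes run from Rspo4 (-7.03 and -5.53) at the bottom to Fzd2 (6.73 and 6.38) at the top.

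The promoters of 39 members were found in the RefSeq table (build GRCm38.p6), as 48 windows of the 250 bases before an annotated start. They are described beside the expression values, and no link between the letters and those values was tested. Both strands were searched for the word CTTTGAA, its variant CTTTGAT, the word CTTTGTA and its variant CTTTGTT, which TCF and LEF factors are known to bind, and for the full palindrome of the estrogen response element, any 3 letters between its arms. A site can match a single TCF/LEF word at most, since these differ only in their last letters. A TCF/LEF word stood in 6 of the 48 windows (12.5%) and in 14.8% of the 32851 promoters of the table; the 6 belong to Dkk1, Wnt11, Wnt5b, Fzd7, Tnfrsf19 and Lef1. The estrogen response element stood in 0 of the 48 and in 0.0639% of all promoters. Below are the windows of Dkk1 (chr19:30549497-30549746, minus strand), Wnt11 (chr7:98834862-98835111, plus strand), Tnfrsf19 (chr14:61037988-61038237, minus strand, the downstream of its annotated starts in the table) and Axin2 (chr11:108920099-108920348, plus strand), 5′ to 3′ on the gene's strand, with TCF/LEF words of either orientation in capitals. Dkk1 and Wnt11 were higher in KO, and their words begin at -117 and -98 (Dkk1) and at -51 (Wnt11) from the start. Tnfrsf19 was lower in KO and holds a word at -202, and Axin2 was higher in KO and holds none here. The other annotated windows of Wnt11 (chr7:98838595-98838844) and Tnfrsf19 (chr14:61046856-61047105) hold no such word.
Dkk1: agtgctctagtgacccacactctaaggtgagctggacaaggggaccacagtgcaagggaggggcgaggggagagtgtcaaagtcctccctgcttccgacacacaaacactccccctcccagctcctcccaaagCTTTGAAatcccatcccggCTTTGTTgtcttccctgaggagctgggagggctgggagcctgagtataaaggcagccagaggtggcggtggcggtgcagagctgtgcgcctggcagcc
Wnt11: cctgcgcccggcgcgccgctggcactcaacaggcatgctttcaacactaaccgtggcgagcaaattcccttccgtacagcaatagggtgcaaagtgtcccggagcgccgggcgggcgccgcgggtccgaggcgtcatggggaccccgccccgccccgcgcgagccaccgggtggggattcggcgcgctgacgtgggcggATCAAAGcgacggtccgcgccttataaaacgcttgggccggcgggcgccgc
Tnfrsf19: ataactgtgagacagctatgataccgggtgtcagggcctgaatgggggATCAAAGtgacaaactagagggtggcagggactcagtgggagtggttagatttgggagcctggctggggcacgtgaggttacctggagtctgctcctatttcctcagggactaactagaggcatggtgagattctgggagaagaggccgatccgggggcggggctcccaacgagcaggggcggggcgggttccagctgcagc
Axin2: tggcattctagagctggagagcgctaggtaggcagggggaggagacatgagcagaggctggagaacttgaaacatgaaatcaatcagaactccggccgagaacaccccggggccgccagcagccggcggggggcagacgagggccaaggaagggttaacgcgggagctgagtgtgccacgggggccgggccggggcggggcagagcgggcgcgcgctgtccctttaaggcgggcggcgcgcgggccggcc
A match is a run of letters and no evidence of binding, and a window without a match says nothing about the factor.

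Among the 19 WNT ligand genes, 14 were tested, 9 were higher in KO in both treatments, Wnt5a was lower and 4 did not pass in both. Wnt10a, Wnt6, Wnt3a and Wnt11 were not detected, or nearly so, in WT and were read in every KO library. Wnt10a, a ligand of the beta-catenin branch known from skin appendages and teeth, had no read in the 6 WT libraries. In untreated KO it reached 39.8, 16.7 and 23.6 CPM and in treated KO 42.4, 14.5 and 25.6 CPM, at least 2345-fold and 2460-fold higher than the limit that 0 reads allow in the WT group (edgeR adjusted p = 2.41e-05 without, 2.49e-05 with estrogen). Wnt6, the neighbour of Wnt10a on the chromosome, followed it: it had no read in WT and 1.09 to 3.05 CPM in KO, at least 165-fold and 179.5-fold higher (edgeR adjusted p = 8.11e-05 without, 7.87e-05 with estrogen). The ratio of Wnt10a to Wnt6 stayed between 13.3 and 15.0 in all 6 KO libraries. Both genes were thus highest and lowest in the same KO libraries.

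Wnt11, a ligand known mainly for signalling without beta-catenin, went from a few reads in WT to 53.1 to 85.9 CPM in KO. Its values were 0, 0.0202 and 0 CPM in WT (0.0617, 0.0484 and 0 when treated) and 57.9, 85.9 and 78.4 CPM in KO (53.1, 84.2 and 79.4 when treated). Without estrogen the KO group was 9805 times as high as the WT group, with a 95% counting interval of 2714 to 80970.0 around the 2 reads found in WT (edgeR adjusted p = 6.65e-09 without, 8.86e-09 with estrogen). With estrogen WT had 10 reads, and the ratio of mean CPM was 1968. Wnt3a, a strong activator of beta-catenin signalling, had no read in untreated WT and 2 reads in treated WT, against 1.94 to 5.49 CPM in the KO libraries. That is at least 348-fold higher without estrogen and 503-fold (interval 139 to 4160.0) with it (edgeR adjusted p = 5.44e-06 without, 7.98e-06 with estrogen). Wnt9a, the neighbour of Wnt3a, did not pass in either treatment and lay at 4.75 to 10.2 CPM in the WT libraries and 4.56 to 6.68 CPM in the KO libraries (log2 fold changes -0.49 and -0.13, edgeR adjusted p = 0.12 without, 0.673 with estrogen).

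Other ligands that WT organoids already transcribed were higher in KO by smaller factors. Wnt4, needed for the formation of the Müllerian duct and for the uterine response to implantation, was measured at 4.49, 3.96 and 9.31 CPM in WT (8.88, 3.19 and 5.03 when treated) and 57.5, 30.0 and 37.2 CPM in KO (59.6, 27.3 and 38.7 when treated). All 6 KO libraries exceeded all 6 WT libraries, with log2 fold changes of 2.81 ± 0.47 (SE) without and 2.87 ± 0.47 with estrogen (edgeR adjusted p = 0.000275 and 0.000248). Wnt16, a ligand known from bone and skin, was at 0.752, 1.10 and 0.429 CPM in WT (0.771, 0.896 and 1.81 when treated) and 11.4, 20.1 and 17.96 CPM in KO (12.5, 21.5 and 18.9 when treated). The rise was 4.43 ± 0.44 (SE) without and 3.93 ± 0.42 with estrogen (edgeR adjusted p = 4.47e-06 and 9.64e-06) on the log2 scale. Wnt7b, an epithelial ligand that acts on neighbouring mesenchyme in several organs, was at 53.8, 43.6 and 63.2 CPM in WT (45.3, 59.2 and 53.1 when treated) and 105, 121 and 123 CPM in KO (97.0, 154 and 123 when treated). It was higher in KO by 2.17-fold without and 2.37-fold with estrogen, with log2 fold changes of 1.12 ± 0.18 (SE) without and 1.25 ± 0.18 with estrogen (edgeR adjusted p = 0.000176 and 8.52e-05). Exons of Wnt7b overlap those of the opposite-strand transcript AU022754, and the counting command in the file headers names no strand option, so reads in the overlap cannot be told apart. The spans of Wnt5b, Wnt2b, Wnt3, Fzd4, Lgr5 and Tcf7 overlap those of Fbxl14, St7l, Wnt9b, Tmem135, A930009A15Rik and Skp1 in RefSeq, but in GENCODE vM21 none of their exons overlaps an exon of another counted gene.

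Wnt7a, the ligand that patterns the female tract and its glands, varied widely between WT libraries. It was at 7.73, 4.17 and 22.4 CPM in WT (14.5, 1.89 and 1.22 when treated) and 19.5, 19.7 and 23.1 CPM in KO (16.8, 34.1 and 29.3 when treated). WT libraries ranged from 1.22 to 22.4 CPM and overlapped the KO range of 16.8 to 34.1 CPM. The log2 fold changes were 0.86 ± 0.82 (SE) without and 2.18 ± 0.85 with estrogen (edgeR adjusted p = 0.365 and 0.0394), so it passed only in treated organoids; the interaction of genotype and estrogen did not pass for it (edgeR adjusted p = 0.974).

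Wnt5a was the only ligand lower in KO in both treatments. This ligand, required for the posterior tract and for gland formation, was at 51.4, 71.2 and 52.4 CPM in WT (71.2, 99.1 and 121 when treated) and 39.9, 33.3 and 42.4 CPM in KO (42.5, 42.0 and 44.8 when treated). Every KO library was below every WT library, and the difference was 1.51-fold without and 2.25-fold with estrogen. The log2 fold changes were -0.60 ± 0.18 (SE) without and -1.17 ± 0.18 with estrogen (edgeR adjusted p = 0.0124 and 0.00017). The call in untreated organoids was close to the threshold: the larger adjusted p became 0.0582 without untreated WT replicate 2, 0.0512 without untreated KO replicate 2 and 0.0817 when library size alone set the scale.

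The remaining ligands were near the lower end of detection. Wnt5b was at 0.263 to 0.823 CPM in the WT libraries and 1.13 to 2.40 CPM in the KO libraries and was higher in KO (log2 fold changes 1.63 and 1.31, edgeR adjusted p = 0.00441 without, 0.0141 with estrogen). Wnt10b, at 0.0127 to 0.121 CPM in the WT libraries and 0.135 to 0.577 CPM in the KO libraries, was also higher (2.78 and 1.53, edgeR adjusted p = 0.00338 without, 0.0485 with estrogen), but the call was lost when any of 8 libraries was left out: untreated WT replicates 2 and 3 (larger adjusted p 0.0599 and 0.0572), treated WT replicates 1, 2 and 3 (0.144, 0.0571 and 0.0978), untreated KO replicate 2 (0.0638) and treated KO replicates 1 and 2 (0.185 and 0.0584). Wnt2b passed only without estrogen, where it was lower in KO (log2 fold changes -0.80 and -0.25, edgeR adjusted p = 0.0417 without, 0.478 with estrogen). Wnt3, at 0 to 0.113 CPM in the WT libraries and 0.0190 to 0.288 CPM in the KO libraries, did not pass (edgeR adjusted p = 0.117 without, 0.251 with estrogen). Wnt1, Wnt2, Wnt8a, Wnt8b and Wnt9b were among the genes without enough reads. Porcn, the acyltransferase that all these ligands depend on, was at 7.31, 9.64 and 6.83 CPM in WT (8.12, 10.9 and 13.2 when treated) and 33.6, 34.2 and 29.6 CPM in KO (39.3, 32.0 and 32.5 when treated). It was higher in KO by 4.09-fold without and 3.22-fold with estrogen, with log2 fold changes of 2.03 ± 0.18 (SE) without and 1.69 ± 0.18 with estrogen (edgeR adjusted p = 2.05e-06 and 8.63e-06).

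To compare members with each other, CPM were divided by gene length in kilobases (exon union of GENCODE vM21, GRCm38) and summed. The 19 ligands together came to 27.8 ± 5.54 CPM per kb (SD, n = 3) in WT (31.1 ± 1.47 when treated), against 87.2 ± 2.79 in KO (91.7 ± 4.15 when treated). In WT this sum was made up chiefly of Wnt7b (33.1 to 46.1%) and Wnt5a (21.8 to 52.9%). In KO, Wnt7b still held 24.2 to 35.3%, Wnt5a had 5.65 to 6.95%, and Wnt11 (16.9 to 28.3%, from at most 0.0575% in WT) and Wnt10a (6.20 to 19.7%, from 0) stood beside it. The share of Wnt4 was 2.46 to 7.14% in WT and 6.87 to 16.3% in KO, and that of Wnt7a 1.18 to 20.8% and 6.08 to 11.3%, ranges that overlap.

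**Figure D3:**
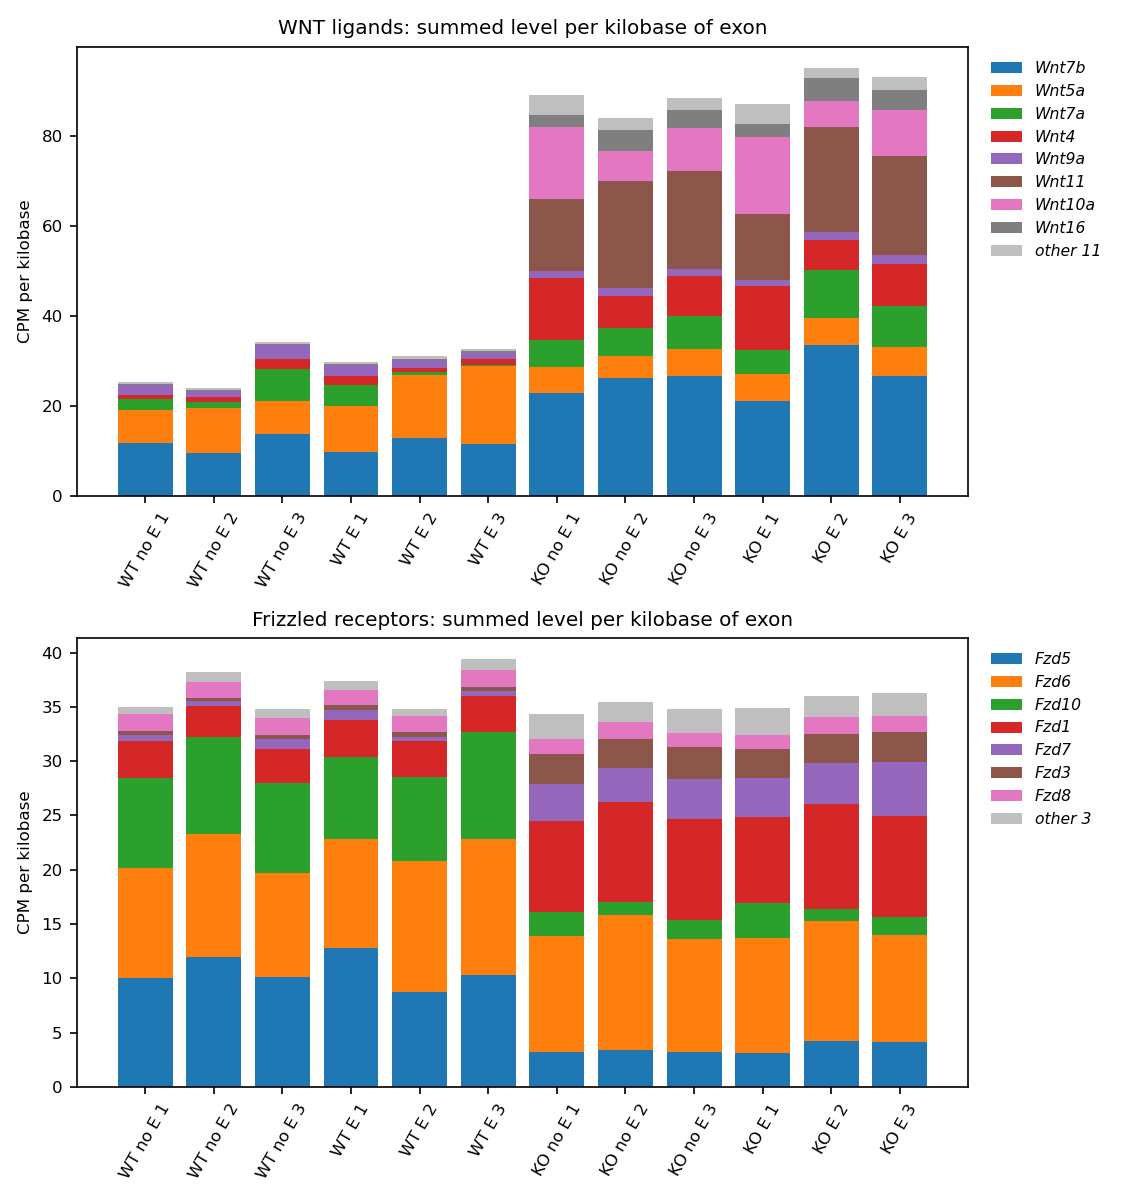
Summed CPM per kb of gene length in each of the 12 libraries, stacked by gene, for the WNT ligands and for the Frizzled receptors. Ligand bars are taller in the 6 KO libraries and gain Wnt11 and Wnt10a; Frizzled bars have about the same height in all 12 libraries while Fzd5 and Fzd10 shrink and Fzd1, Fzd3 and Fzd7 grow.

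The Frizzled receptors differed in makeup between the genotypes and less in their sum. The 10 genes together came to 36.0 ± 1.93 CPM per kb in WT (37.2 ± 2.28 when treated) and 34.9 ± 0.540 in KO (35.7 ± 0.742 when treated; SD, n = 3), with overlapping ranges. Fzd5 went from 25.0 to 34.2% of that sum in WT to 9.05 to 11.8% in KO, and Fzd10 from 20.0 to 25.0% to 3.06 to 9.33%. In the other direction, Fzd1 rose from 7.57 to 9.81% to 22.7 to 26.9%, Fzd7 from 1.05 to 2.85% to 8.82 to 13.7%, and Fzd3 from 0.731 to 1.38% to 7.49 to 8.53%. The share of Fzd6 was 26.9 to 34.7% in WT and 27.0 to 35.1% in KO.

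By single receptor, 5 of the 10 Frizzleds were higher in KO in both treatments, 2 were lower and 3 did not pass in both. Fzd5, an epithelial receptor of the beta-catenin branch, was at 69.4, 82.5 and 70.0 CPM in WT (88.5, 60.2 and 71.3 when treated) and 22.1, 23.4 and 22.4 CPM in KO (21.8, 29.4 and 28.8 when treated). The log2 fold changes were -1.71 ± 0.15 (SE) without and -1.46 ± 0.15 with estrogen (edgeR adjusted p = 1.55e-06 and 5.39e-06), and no KO library reached the WT range. Fzd10 was at 26.9, 28.9 and 26.9 CPM in WT (24.3, 25.1 and 32.0 when treated) and 7.24, 4.04 and 5.48 CPM in KO (10.6, 3.58 and 5.47 when treated). Its log2 fold changes were -2.30 ± 0.34 (SE) without and -2.05 ± 0.34 with estrogen (edgeR adjusted p = 0.000111 and 0.000249), and the genotypes did not overlap. Fzd10os, a noncoding transcript from the opposite strand beside Fzd10, was at 10.5, 10.5 and 11.5 CPM in WT (9.10, 9.55 and 10.2 when treated) and 3.86, 2.26 and 3.57 CPM in KO (5.87, 2.64 and 3.68 when treated). It too was lower in KO (log2 fold changes -1.75 and -1.24, edgeR adjusted p = 0.000146 without, 0.00152 with estrogen). Fzd10 exceeded Fzd10os by 2.34 to 3.13 times in WT and by 1.36 to 1.88 times in KO. The spans of these genes do not overlap in RefSeq.

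Fzd3, a receptor known for planar polarity and axon guidance, was at 4.10, 3.56 and 4.70 CPM in WT (5.00, 6.10 and 5.30 when treated) and 34.9, 34.4 and 37.8 CPM in KO (33.8, 34.7 and 34.6 when treated). The KO libraries fell within a narrow range, 33.8 to 37.8 CPM, and exceeded WT by 8.67-fold without and 6.29-fold with estrogen. Its log2 fold changes were 3.12 ± 0.12 (SE) without and 2.65 ± 0.11 with estrogen (edgeR adjusted p = 3.87e-09 and 1.04e-08). Fzd1 was at 14.4, 12.2 and 13.1 CPM in WT (14.5, 14.0 and 14.2 when treated) and 34.9, 38.5 and 39.4 CPM in KO (33.2, 40.3 and 39.3 when treated). KO exceeded WT in every library, by 1.51 ± 0.095 (SE) without and 1.40 ± 0.094 with estrogen (edgeR adjusted p = 1.22e-07 and 2.37e-07) on the log2 scale. Fzd7, a receptor associated with stem and progenitor cells, was at 2.60, 2.10 and 4.50 CPM in WT (4.24, 1.67 and 1.87 when treated) and 15.7, 14.2 and 16.6 CPM in KO (16.4, 17.2 and 22.5 when treated). It was higher in all 6 KO libraries, by 2.34 ± 0.37 (SE) without and 2.85 ± 0.37 with estrogen (edgeR adjusted p = 0.00016 and 4.34e-05) on the log2 scale. Fzd4, also the receptor of norrin, differed least among the 5, at 3.94, 5.50 and 4.46 CPM in WT (5.20, 3.57 and 5.62 when treated) and 7.24, 7.65 and 8.73 CPM in KO (7.34, 8.61 and 8.55 when treated). Its log2 fold changes were 0.76 ± 0.19 (SE) without and 0.77 ± 0.19 with estrogen (edgeR adjusted p = 0.00333 and 0.00329). Fzd2 was nearly unread in WT (at most 0.0726 CPM) and lay at 2.15 to 4.63 CPM in KO (edgeR adjusted p = 2.58e-06 without, 3.38e-06 with estrogen). Fzd6 (41.9 to 54.7 CPM in WT, 42.9 to 54.4 in KO), Fzd8 (8.48 to 9.45 and 7.31 to 9.25) and Fzd9 (0.127 to 0.263 and 0.0457 to 0.292) passed in neither treatment, with edgeR adjusted p between 0.233 and 0.978.

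The coreceptors did not move together. Lrp5, which pairs with Frizzleds to relay the ligand signal, was lower in KO, at 154, 146 and 150.0 CPM in WT (156, 146 and 139 when treated) and 78.0, 80.4 and 75.1 CPM in KO (72.4, 84.9 and 76.4 when treated). The log2 fold changes were -0.94 ± 0.070 (SE) without and -0.92 ± 0.070 with estrogen (edgeR adjusted p = 4.53e-07 and 6.36e-07), and the difference was 1.92-fold without and 1.89-fold with estrogen. Its close relative Lrp6 was at 120.0, 110.5 and 104 CPM in WT (95.4, 108 and 88.4 when treated) and 96.8, 101 and 99.6 CPM in KO (95.1, 110.2 and 103 when treated). The groups overlapped and the log2 fold changes were -0.17 ± 0.086 (SE) without and 0.08 ± 0.086 with estrogen (edgeR adjusted p = 0.0975 and 0.432). Ror2, the receptor through which Wnt5a acts without beta-catenin, was higher in KO, at 0.395, 0.879 and 0.579 CPM in WT (0.350, 0.678 and 0.789 when treated) and 6.95, 5.42 and 7.33 CPM in KO (6.69, 5.34 and 7.10 when treated). No KO library fell into the WT range, and the log2 fold changes were 3.40 ± 0.34 (SE) without and 3.40 ± 0.34 with estrogen (edgeR adjusted p = 4.68e-06 and 5.11e-06). Its relative Ror1 had 30 reads in all, none of them in WT.

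Of the R-spondin system, the ligand and the receptor most abundant per kilobase were lower in KO. Rspo4, the only R-spondin with enough reads, was at 18.2, 11.3 and 20.6 CPM in WT (13.8, 15.3 and 7.43 when treated) and 0.0841, 0.206 and 0.0901 CPM in KO (0.138, 0.514 and 0.133 when treated). No KO library exceeded 0.514 CPM and no WT library was below 7.43 CPM, with log2 fold changes of -7.03 ± 0.61 (SE) without and -5.53 ± 0.55 with estrogen (edgeR adjusted p = 1.75e-06 and 5.37e-06). Lgr4, an R-spondin receptor of many epithelia, was at 55.8, 72.8 and 41.5 CPM in WT (53.8, 60.3 and 79.5 when treated) and 31.7, 32.3 and 30.8 CPM in KO (33.7, 33.0 and 30.9 when treated). The log2 fold changes were -0.84 ± 0.18 (SE) without and -0.99 ± 0.18 with estrogen (edgeR adjusted p = 0.0017 and 0.000605). Lgr5, the stem cell marker of the gut and of uterine glands, was low in every group, at 0.662, 1.11 and 0.347 CPM in WT (0.308, 0.460 and 0.507 when treated) and 1.23, 0.685 and 0.495 CPM in KO (1.13, 0.297 and 0.513 when treated). The ranges overlapped, with log2 fold changes of 0.18 ± 0.55 (SE) without and 0.61 ± 0.56 with estrogen (edgeR adjusted p = 0.784 and 0.346). Lgr6 was at 12.1 to 14.0 CPM in WT and 3.90 to 15.7 CPM in KO and did not pass (edgeR adjusted p = 0.267 without, 0.244 with estrogen). Without both KO libraries numbered 1, a step chosen after seeing the data, its mean log2 fold change was -1.34 and it passed in both treatments (larger adjusted p 0.00146).

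Of the ubiquitin ligases that remove Frizzleds from the membrane, Rnf43 was slightly higher in KO and Znrf3 did not pass. Rnf43 was at 22.9, 22.3 and 22.2 CPM in WT (22.3, 25.8 and 28.5 when treated) and 30.5, 32.6 and 32.6 CPM in KO (29.5, 32.7 and 32.1 when treated). All 6 KO libraries lay above the WT libraries, but the log2 fold changes were small, 0.51 ± 0.088 (SE) without and 0.30 ± 0.088 with estrogen (edgeR adjusted p = 0.000334 and 0.00952). Znrf3, its partner, was at 11.7, 11.8 and 11.8 CPM in WT (11.9, 12.4 and 11.3 when treated) and 12.8, 10.8 and 10.3 CPM in KO (12.6, 11.0 and 11.7 when treated). It did not differ beyond the spread, with log2 fold changes of -0.06 ± 0.10 (SE) without and -0.02 ± 0.10 with estrogen (edgeR adjusted p = 0.636 and 0.895).

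The secreted inhibitors among the members were higher in KO wherever they passed. Wif1, which binds WNT ligands outside the cell, had no read in the 6 WT libraries and reached 17.7, 11.4 and 15.3 CPM in untreated KO and 21.4, 7.32 and 10.2 CPM in treated KO. That is at least 1302-fold and 1163-fold higher (edgeR adjusted p = 1.31e-05 without, 1.52e-05 with estrogen). Dkk1, which blocks Lrp5 and Lrp6 and whose promoter window holds the pair of TCF/LEF words shown above, had no read in WT either and lay at 0.983 to 2.54 CPM in KO, at least 151.5-fold and 120.2-fold higher (edgeR adjusted p = 4.97e-05 without, 6.58e-05 with estrogen). Dkk3, a divergent member of its family, was at 0.0765 to 0.226 CPM in the WT libraries and 3.78 to 5.23 CPM in the KO libraries (edgeR adjusted p = 1.21e-07 without, 2e-07 with estrogen). Dkk2 varied within groups, from 0.0484 to 1.90 CPM in WT and from 0.216 to 2.76 in KO, and did not pass (edgeR adjusted p = 0.596 without, 0.503 with estrogen). Dkk4 had no read.

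Sfrp1, a decoy receptor for WNT ligands, was at 0.153, 0.222 and 0.232 CPM in WT (0.411, 0.290 and 0.158 when treated) and 12.4, 12.7 and 13.5 CPM in KO (11.3, 12.8 and 12.5 when treated). Its log2 fold changes were 5.97 ± 0.29 (SE) without and 5.40 ± 0.28 with estrogen (edgeR adjusted p = 1.82e-08 and 3.25e-08). Sfrp2, of the same family, was at 0.828, 0.647 and 0.892 CPM in WT (0.607, 1.14 and 0.496 when treated) and 5.79, 4.23 and 6.80 CPM in KO (7.04, 5.82 and 7.86 when treated). On the log2 scale KO exceeded WT by 2.83 ± 0.31 (SE) without and 3.21 ± 0.32 with estrogen (edgeR adjusted p = 9.86e-06 and 4.33e-06). Sfrp4 and Sfrp5 had 4 and 18 reads in all. Per kilobase, the 4 SFRP genes summed to 0.445 ± 0.0640 CPM per kb in WT (0.445 ± 0.184 when treated) and 5.75 ± 0.727 in KO (6.25 ± 0.483 when treated; SD, n = 3). Notum, the secreted enzyme that strips the lipid from WNT ligands, was at 0.191 to 1.03 CPM in the WT libraries and 2.55 to 6.41 CPM in the KO libraries (log2 fold changes 3.29 and 3.05, edgeR adjusted p = 0.000407 without, 0.000628 with estrogen).

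Axin2, the feedback scaffold that is widely read as a marker of beta-catenin signalling, was higher in KO. It was at 0.268, 0.890 and 0.394 CPM in WT (0.658, 0.363 and 0.901 when treated) and 6.60, 5.37 and 4.63 CPM in KO (7.64, 3.65 and 4.26 when treated). Each KO library exceeded each WT library and the log2 fold changes were 3.40 ± 0.48 (SE) without and 3.01 ± 0.47 with estrogen (edgeR adjusted p = 7.23e-05 and 0.000162). Axin1, the related scaffold that is not under this feedback, was at 56.3 to 62.2 CPM in the WT libraries and 52.5 to 61.8 CPM in the KO libraries and did not pass (edgeR adjusted p = 0.253 without, 0.963 with estrogen). Nkd2, an inhibitor of dishevelled, was at 0.0232 to 0.293 CPM in the WT libraries and 0.274 to 0.673 CPM in the KO libraries and higher in KO (edgeR adjusted p = 0.00055 without, 0.0271 with estrogen). Its call was lost without treated WT replicate 1 or 2 (larger adjusted p 0.0835 and 0.0935) and without treated KO replicate 1 or 3 (0.0505 and 0.0577). Nkd1, at 0.0225 to 0.102 CPM in the WT libraries and 0.108 to 0.284 CPM in the KO libraries, passed only with estrogen (edgeR adjusted p = 0.0624 without, 0.0137 with estrogen); without treated WT replicate 1 it passed in both treatments (larger adjusted p 0.0451).

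Tnfrsf19, also called Troy, a TNF family receptor known as a WNT target that binds Lgr5, moved the other way from Axin2. It was at 210.2, 288 and 179 CPM in WT (235, 219 and 271 when treated) and 9.78, 9.73 and 9.77 CPM in KO (9.97, 6.83 and 8.54 when treated). It was lower in KO by 23.1-fold without and 28.6-fold with estrogen, with log2 fold changes of -4.53 ± 0.20 (SE) without and -4.84 ± 0.20 with estrogen (edgeR adjusted p = 1.15e-08 and 1.01e-08). Of the transcription factors, Lef1 was at 0, 0.0202 and 0.0463 CPM in WT (0, 0 and 0 when treated) and 0.0240, 0 and 0.0676 CPM in KO (0.0344, 0 and 0.0190 when treated), which is 20 reads in all. Tcf7, its relative, was at 6.30 to 7.36 CPM in the WT libraries and 6.08 to 8.91 CPM in the KO libraries and did not pass (edgeR adjusted p = 0.231 without, 0.871 with estrogen).

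The other genes of the pathway, listed apart from the members, changed in both directions. Of 110 listed, 101 were tested; 34 were higher in KO in both treatments, 27 were lower (34.1% and 30.8% of all genes) and 40 did not pass in both, with a median log2 fold change of 0.16. With library size alone as the scale, the split was 47 higher and 16 lower. The median over all genes also moved up under that scale, by 0.226 without and 0.185 with estrogen (log2). The shares of all genes given above belong to the TMM scale. By role, 8 were higher and 5 lower among 17 genes of secretion and the extracellular space, 5 and 4 among 19 of the planar and noncanonical branch, 6 and 6 among 28 cytoplasmic genes, 5 and 7 among 17 nuclear genes, and 10 and 5 among 20 common targets. Apcdd1, a membrane inhibitor of the pathway, had 2 and 4 reads in the WT groups and 4857 and 5745 in the KO groups (edgeR adjusted p = 3.66e-06 without, 4.79e-06 with estrogen). Trabd2b, a protease that inactivates WNT ligands, went the other way (log2 fold changes -7.03 and -9.30, edgeR adjusted p = 1.29e-08 without, 7.72e-09 with estrogen). Of planar polarity genes, Celsr1 was higher (2.04 and 1.85) and Scrib lower (-0.53 and -0.44).

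Ctnnb1, which encodes beta-catenin, was lower in KO, with log2 fold changes of -1.05 ± 0.084 (SE) without and -0.92 ± 0.084 with estrogen (edgeR adjusted p = 7.93e-07 and 2.39e-06). Frat2, which restrains the kinase that marks beta-catenin for destruction, was higher (2.58 and 2.63, edgeR adjusted p = 2.01e-06 without, 1.9e-06 with estrogen). In the nucleus the corepressor Tle4 was higher (5.08 and 4.78, edgeR adjusted p = 1.22e-07 without, 1.86e-07 with estrogen) and the coactivator Bcl9 lower (-2.27 and -2.05, edgeR adjusted p = 2.83e-07 without, 6.56e-07 with estrogen). Among common targets Cd44 was higher (5.32 and 5.84, edgeR adjusted p = 1.48e-05 without, 9.43e-06 with estrogen) and Mmp7 lower (-6.28 and -5.77, edgeR adjusted p = 4.57e-07 without, 7.71e-07 with estrogen). Wls, the carrier of WNT ligands to the surface, was slightly higher (0.57 and 0.37, edgeR adjusted p = 0.0018 without, 0.0221 with estrogen), a call lost without treated WT replicate 1 or 2 or treated KO replicate 2 (larger adjusted p 0.0765, 0.0876 and 0.0799). Myc (0.48 and 0.50, edgeR adjusted p = 0.0299 without, 0.0247 with estrogen) lost its call without untreated WT replicate 1 or 2 (0.0686 and 0.106), treated WT replicate 1 or 3 (0.0738 and 0.0773), untreated KO replicate 1 or 3 (0.101 and 0.055) or treated KO replicate 1 (0.117). Ccnd1 did not differ beyond the spread (0.07 and 0.06, edgeR adjusted p = 0.717 without, 0.76 with estrogen).

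Within the KO organoids, replicate 1 was the highest of 3 in both treatments for many WNT genes. In 21 of the 48 tested members (43.8%, against 25% of all genes) replicate 1 was the highest of 3 both without and with estrogen. These were Wnt3, Wnt3a, Wnt4, Wnt6, Wnt10a, Wnt10b, Fzd2, Fzd9, Fzd10, Fzd10os, Lgr5, Lgr6, Znrf3, Dkk1, Dkk3, Axin1, Axin2, Notum, Tnfrsf19, Wif1 and Tcf7. Ranks were counted without a minimum size of the difference, and some differences were very small. Tnfrsf19, for example, lay at 9.78, 9.73 and 9.77 CPM in untreated KO. Replicate 2 was the lowest in both for 16 members (33.3%, against 22.1%). In 12 members replicate 1 was the lowest in both, a share near that of all genes (25%, against 26.3%): Wnt7a, Wnt7b, Wnt9a, Wnt11, Wnt16, Fzd1, Fzd4, Fzd5, Lrp6, Rnf43, Sfrp1 and Dkk2. The 6 basal markers were all highest in replicate 1 of both KO groups, 4 of the 6 ciliated markers were lowest there and 1 was highest, and 7 of the 8 epithelial markers were lowest. Without both KO libraries numbered 1, a step chosen after seeing the data, 32 of 47 tested members differed in both treatments (23 higher, 9 lower). The share of all genes in that fit is not given here. Wnt10b (larger adjusted p 0.152) and Nkd2 (0.062) were lost and Lgr6 was gained. The part of the basal and ciliated cells in this pattern was not tested.

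**Figure D4:**
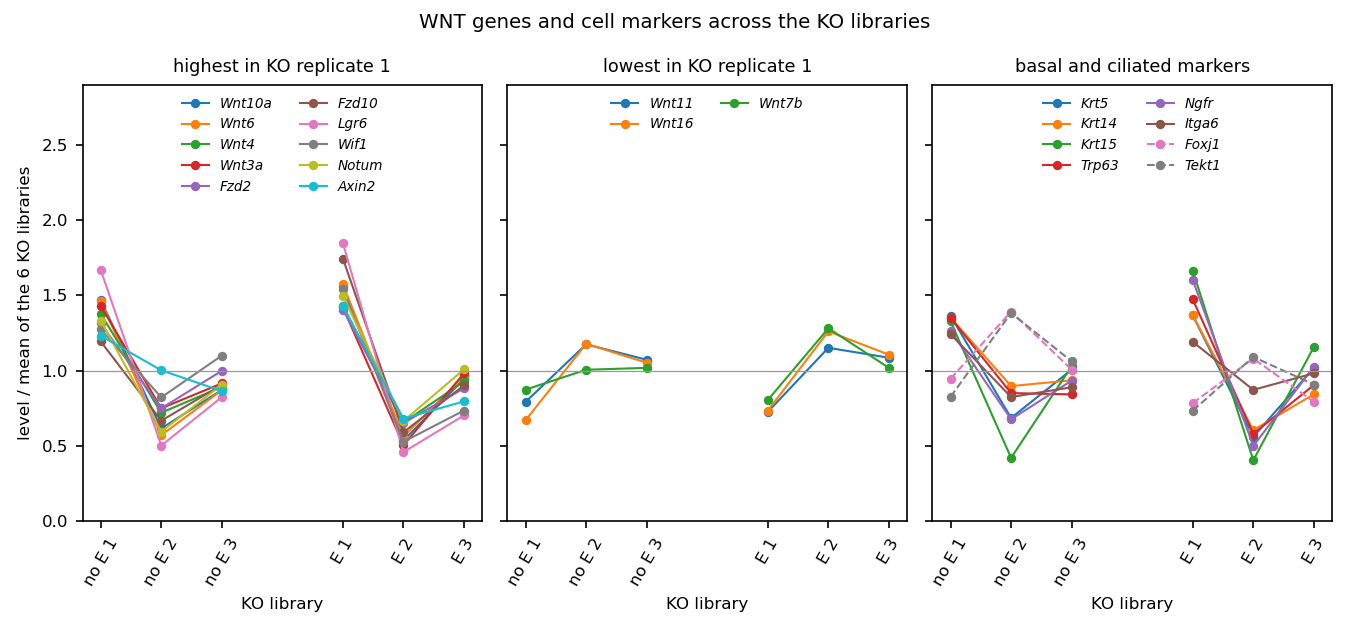
Level of 10 WNT genes that were highest in KO replicate 1 (left), 3 that were lowest there (middle) and of basal and ciliated markers (right, ciliated dashed). Values are of each of the 6 KO libraries, divided by the mean of the 6, with lines that only join the points of a gene. The genes were chosen after their values were seen. The ciliated markers drawn are Foxj1 and Tekt1 only, both lowest in replicate 1 of both treatments. Of the 6 listed ciliated markers, 4 were lowest there and 1 was highest. Wnt10a runs from 0.536 to 1.56 times its mean, highest in replicate 1 of both treatments, as the basal markers are.

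No member passed the threshold for estrogen in either genotype, and of all 16465 genes none passed (edgeR adjusted p under 0.05, background 0%). The submitters' treatment note likewise states that organoids of both genotypes showed no response. The edgeR fit did not pair libraries, although same-numbered KO libraries deviated together (r = 0.57, 0.50 and 0.41 over genes). Some WT libraries of unlike number did too (r = 0.27, 0.46 and 0.40), and those WT pairs were not fitted. Spread between pairs was thus counted as error, so a paired change smaller than that spread could be missed. At an unadjusted p under 0.05, 5 members passed in WT (Nkd2, Wnt5a, Fzd3, Lrp6 and Porcn; 10.4%, against 5.36% of all genes), 0 in KO (2.5% of all genes) and 3 in the interaction of genotype and estrogen (Nkd2, Wnt5a and Fzd3; 6.25%, against 4.41%). Wnt5a had a log2 fold change of 0.74 ± 0.18 (SE) for treated over untreated WT (edgeR adjusted p = 0.614). DESeq2 called Wnt5a alone among the members in WT (adjusted p = 0.0496) and 69 genes in all; it called no member in KO, where 20 genes passed, and none in the interaction, where 27 genes passed. Without treated WT replicate 1, edgeR called Wnt5a as well (adjusted p = 0.0475, the lowest over all alternatives; the highest was 1). In KO its log2 fold change was 0.16 ± 0.18. Among the 23 members with at least 5 CPM in WT, log2 fold changes for estrogen ran from -0.96 (Wnt7a) to 0.74 (Wnt5a), with 21 inside 0.5 of 0. Among the 31 such members in KO they ran from -0.21 (Tnfrsf19) to 0.36 (Wnt7a), all 31 inside 0.5. The median standard error was 0.17 in WT and 0.18 in KO, and a change of several times that size, that of Wnt5a in WT, did not pass with 3 libraries a group.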

How the data were processed

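RNA from 12 libraries of mouse endometrial epithelial organoids was counted per gene. Per the submitters' processing notes, the authors used STAR 2.7.10b on the GRCm39 build after Trim Galore 0.6.6, with FastQC 0.11.7, and deposited raw read counts per gene from featureCounts (2.0.3 in the notes, 2.0.0 per the file headers). The counting command in the file headers names no strand option, so reads of overlapping genes on opposite strands cannot be told apart. Groups came from the labels.

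Counts were fitted in 1 model of the 4 groups with edgeR 4.0.16 (limma 3.58.1, R 4.3.3): TMM scaling, filterByExpr (minimum count 10, minimum total 15), robust glmQLFit and glmQLFTest, with Benjamini-Hochberg adjustment over all 16465 genes tested and a threshold of 0.05. A gene is called in both treatments where both genotype comparisons pass with the same sign. Standard errors are the log2 fold change over the square root of F. Bounds against 0 reads use 3 reads over the group, and intervals are exact at 95%. Alternatives included DESeq2 1.42.0, other scaling, filters and sample sets, a 2-fold minimum, replicate blocks and leaving out each library. Gene lengths came from GENCODE vM21 and promoters and neighbours from RefSeq GRCm38.p6, a build other than that of the counts.

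The members, the lists and the rule for named genes were chosen with earlier results of these data known. Values per library are given for members called in both treatments with a group mean of at least 5 CPM and for Wnt4, Wnt5a, Wnt7a, Wnt7b, Wnt11, Lgr4, Lgr5, Axin2, Lef1, Rnf43, Znrf3, Porcn, Lrp5 and Lrp6. Of the other pathway genes, the called genes with the most positive and the most negative change in each role among those with a group mean of at least 5 CPM are named, and Ctnnb1, Wls, Myc and Ccnd1. Markers of gland, smooth muscle, immune and endothelial cells were also listed: of those tested, 2 of 3 gland, 1 of 4 smooth muscle, 1 of 4 immune and 1 of 2 endothelial markers were higher in KO, and 1, 1, 2 and 1 lower; of the 3 tested uterine identity markers 3 were lower, of the 8 epithelial markers 3 were lower, and of the 6 stromal markers 1 was higher. Same-numbered KO libraries deviated together across treatments (r = 0.57, 0.50 and 0.41 over genes), so the numbers pair them. Those of WT did not (r = -0.16, -0.16 and -0.39). WT libraries of unlike number did: untreated 1 with treated 2 (r = 0.27), 2 with 3 (0.46) and 3 with 1 (0.40). The estrogen comparison in WT was not fitted with these pairs.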

Additional observations from a re-analysis of the deposited data

How the results depend on the processing

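Of the 33 members called in both treatments, 26 were called under each of the 21 alternatives that test the genotypes, and 30 under each of them apart from the 2-fold minimum; no member reversed. The 2-fold minimum gave 28 members and 28 of the other pathway genes (20 higher, 8 lower), since it asks for a larger change. Of all genes, 35.6% met it in both treatments. For the other alternatives the matching genotype shares of all genes are not given here, so their counts compare settings only. Wnt5a, Wnt10b and Nkd2 were lost under other alternatives, and Nkd1 and Lgr6 were gained under some; the cause was not tested. Leaving out 1 library at a time gave 32 to 35 members without estrogen, 31 to 36 with estrogen, 31 to 34 in both, 54 to 59 other pathway genes, 0 to 1 for estrogen in WT (1, Wnt5a, without treated WT replicate 1), 0 for estrogen in KO and 0 for the interaction, and a mean log2 fold change of -4.19 to -4.07 for Esr1. The DESeq2 test gave 1 member for estrogen in WT; the cause was not tested. With library size alone as the scale, the median over all genes moved by 0.226 without and 0.185 with estrogen (log2), and the members then split into 26 higher and 7 lower. With the replicate number as a block shared by the groups, 33 members were called in both treatments (25 higher, 8 lower). This shared block ended the call of Wnt10b alone among the 33 (larger adjusted p 0.0742) and gave that of Nkd1 (0.0418). With the block within each genotype, 0 members were called for estrogen in WT, in KO and in the interaction. In WT that block joined libraries that deviated in opposite directions (r = -0.16, -0.16 and -0.39). It therefore cannot decide about estrogen in WT or about the interaction. The 13 members with too few reads for the filter were not tested.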
